A study of Homo sapiens with 4 samples.

Results

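The untreated HEK293 array was the 1 hybridisation, of 4 in the series, that held RNA from cells given neither siRNA nor control RNA. It was chosen by its sample title, which gives a time of 24 h, as do the titles of the transfected arrays. HEK293 is a human embryonic kidney cell line made by transformation with sheared adenovirus DNA. Such cells carry viral early genes that release E2F factors from retinoblastoma proteins, and their tissue of origin within the kidney preparation has been debated, with neuronal and adrenal features described beside kidney and epithelial ones. Lineage identity is set by transcription factors and shows in a few cell-type-restricted products, such as keratins in epithelium, neurofilaments in neurons, vimentin in mesenchyme and steroid-synthesis enzymes in adrenal cortex. The remaining arrays held RNA of HEK293 cells collected 24 h after transfection with a lipid reagent. They were 1 array of control RNA and 2 arrays of siRNA against MIF, a cytokine gene, called 1# and 2# as in the labels. The labels give 50 pmol/ml for 2# and no dose for 1#, and the series text names doses of 50 and 100 pmol/ml. The labels name no passage, culture or clone, and the untreated condition had 1 array, so its values carry no replicate error.

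Each array reported 48701 probes, and 23687 of them were assigned to 1 gene, which gave 18774 genes. A gene was described by its brightest probe on the untreated array, in the linear intensity units that the authors deposited. Rank 1 is the brightest gene, and a percentile is the share of all 18774 genes with a lower signal. The signal of a probe depends on the probe as well as on its transcript, so ranks order probe signals and not numbers of transcripts. The median signal over all probes was 71.9 on the untreated array, against 74.5 in control RNA, 77.2 in 1# and 78.5 in 2#.

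A level for unexpressed genes was read from 527 genes of families that are restricted to other tissues, which were olfactory, taste and vomeronasal receptors, keratin-associated proteins, beta-defensins, late cornified envelope proteins and alpha interferons. Their signals ran from 46.8 to 351, with a median of 63.1. The 95th percentile of these signals, 88.1, served as the background limit, and 27 of the 527 genes (5.12%) lay above it by construction. Above the limit lay 11169 of 18774 genes (59.5%), and above the 99th percentile of the same families, 138.8, lay 8872 (47.3%). The 2297 genes between both limits are described below as just above background. On either side of the limit stood CTF1 with a signal of 88.07 and SEMA3D with 88.14. A signal at or below the limit means that the probe gave no more than background, which is not the absence of the transcript.

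**Figure D1:**
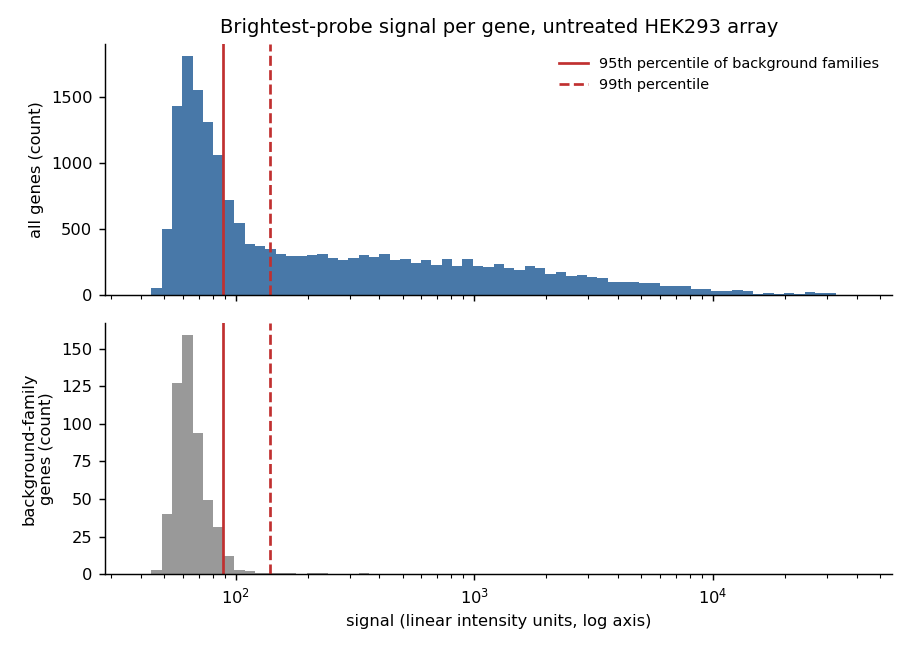
Number of genes by brightest-probe signal on the untreated array (linear intensity units, log axis), for all 18774 genes above and for the 527 background-family genes below. The red lines mark the 95th (88.1, solid) and 99th (138.8, dashed) percentiles of the background families. The background families form 1 narrow peak at the low end, and the signals of all genes extend from the same peak to 35297.

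Promoter sequences of bright and dim genes were compared, and a few are printed here to show the windows. RefSeq promoter windows of GRCh38.p14, from 250 bases before to 50 bases after the annotated start, were matched to 14863 of the 18774 genes. The lines give 60 bases before and 20 bases after the start, 5′ to 3′ on the strand of the gene. The first 4 belong to bright ribosomal protein genes that have CTTTC near the start, with CTTTC in capitals. The last 2 belong to dim background-family genes that have TATAAA in the 60 bases before it, with TATAAA in capitals. They are examples picked for having the motif, so they do not show how bright and dim genes differ. Other genes with these motifs may be brighter or dimmer.
RPS3: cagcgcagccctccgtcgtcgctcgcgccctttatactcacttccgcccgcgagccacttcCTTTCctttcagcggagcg
RPS13: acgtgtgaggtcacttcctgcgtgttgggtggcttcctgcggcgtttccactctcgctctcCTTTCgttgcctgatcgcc
RPS14: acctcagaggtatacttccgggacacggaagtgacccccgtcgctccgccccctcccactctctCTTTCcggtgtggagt
RPL12: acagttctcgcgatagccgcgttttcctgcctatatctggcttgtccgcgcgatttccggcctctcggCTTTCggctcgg
OR10A2: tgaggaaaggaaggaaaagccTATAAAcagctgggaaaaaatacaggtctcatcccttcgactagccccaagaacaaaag
LCE2A: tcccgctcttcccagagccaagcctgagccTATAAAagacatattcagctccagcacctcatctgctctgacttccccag

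These windows lie at chr11:75399458-75399537 (plus strand) for RPS3, chr11:17077648-17077727 (minus) for RPS13, chr5:150449720-150449799 (minus) for RPS14 and chr9:127451387-127451466 (minus) for RPL12. OR10A2 lies at chr11:6862997-6863076 and LCE2A at chr1:152698285-152698364, both on the plus strand. The signal of RPS3 was 33978 and that of RPL12 29624, whereas OR10A2, an olfactory receptor gene, had 49.4 and LCE2A, a late cornified envelope gene of the epidermis, 53.7. The motif CTTTC was searched on the gene's own strand from 5 bases before to 15 bases after the start, where transcripts of the translation machinery are known to begin with a run of pyrimidines. It was present in 23 of 58 ribosomal protein promoters (39.7%) and in 15 of 84 promoters of the 100 brightest genes (17.9%). Among all 27305 promoters of the table it was present in 2.82%. It was as frequent in genes above the limit (2.93%) as in genes at or below it (2.89%).

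The other motifs were searched on both strands of the whole 300-base window. The first, TATAAA, was found in 5.66% of the 9182 promoters of genes above the limit and in 15.8% of the 5681 promoters at or below it. The share was 39.02% in the 410 background-family promoters, 9.53% in the 14863 matched genes and 11.95% in all promoters of the table. The brightest genes did not have the lowest share, since it was 10.7% in the 100 brightest genes and 10.3% in the ribosomal protein genes, and by decile 4.28% in the eighth and 6.09% in the brightest. GGGCGG, the core of the binding sequence of SP1, was found in 69.8% above the limit and 38.02% at or below it. Its share was 57.7% in the matched genes and 44.6% in all promoters of the table. CCGGAAG, a core bound by ETS factors, was found in 18.7% above the limit and 6.21% at or below it. Its share was 13.9% in the matched genes and 10.7% in all promoters of the table. The shares for CCAAT were 37.02% above the limit, 35.96% at or below it, 36.6% in the matched genes and 35.7% in all promoters. The mitochondrial ribosomal proteins had CCGGAAG in 29 of 69 promoters (42.0%), and the proliferation genes had CCAAT in 15 of 19 (78.9%). The median GC content of a window was 65.3% above the limit and 55.7% at or below it, and the motif shares were not adjusted for it. A match of letters is not evidence that a factor binds.

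CpG dinucleotides, which mark the CpG island promoters known from widely expressed genes, followed the same division. A window held a median of 26 CpG in genes above the limit (quartiles 18 and 34), against 8 in genes at or below it (quartiles 3 and 23) and 1 in the background families. By decile of signal the median count was 5 in the dimmest decile, 12 in the fourth, 21 in the fifth and 25 in the sixth. From the seventh decile to the brightest it was 26 or 27. The count therefore differed between genes near background and genes above it, and was nearly flat over the brighter deciles. Among lineage marker genes the medians were 16.5 in the 72 above the limit and 8 in the 85 at or below it.

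**Figure D2:**
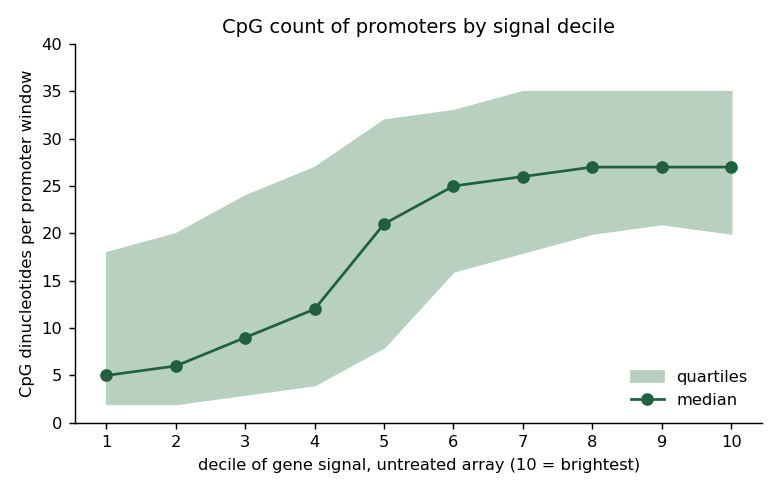
CpG dinucleotides per 300-base promoter window (vertical axis, count) by decile of gene signal on the untreated array (horizontal axis, 10 is the brightest). Points are medians and the band spans the quartiles. The median is 5 in the dimmest decile and 27 in the brightest, and changes little from the sixth decile on.

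Among the 100 brightest genes of untreated HEK293 cells, 36 encode cytosolic ribosomal proteins, 7 belong to the cytochrome bc1 and cytochrome oxidase group, 5 to ATP synthase, 4 to glycolysis, 3 to complex I and 2 to the peroxiredoxins. TXN, which encodes the disulfide reductase thioredoxin, was the brightest, with a signal of 35297 on the untreated array, against 34474 in control RNA, 30127 in 1# and 34084 in 2#. Its other probes had 27366 and 22699 on the untreated array. Of the 25 brightest named genes, 16 encode proteins of the cytosolic ribosome, among them RPS3 with 33978, RPS29 with 32537, RPL8 with 31137 and RPS25 with 30944. EEF1A1, the elongation factor that brings aminoacyl-tRNA to the ribosome, had 31937 and its 3 probes differed little, the lowest reading 31636. TPT1, the translationally controlled tumour protein, had 31800, and OAZ1, the antizyme that limits polyamine synthesis, 31030.

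The glycolytic enzymes GAPDH (29830) and ENO1 (29402) were also among these 25, as was PRDX1, a peroxide-reducing peroxiredoxin (28954). H4C3, a gene of histone H4, ranked sixth with 31224. Most such histone transcripts end without a poly(A) tail, and H4 genes are near-identical copies, so the signal of this probe cannot be given to 1 copy. SNAR-A1, a small non-coding RNA that belongs to a set of near-identical copies, had 29003 on the untreated array, against 28623 in control RNA, 30032 in 1# and 30699 in 2#. The order among the brightest genes changed between arrays, since TXN led in untreated cells, RPS3 in control RNA and 2#, and TPT1 in 1# with 38513. The 100 brightest genes held 15.1% of the summed signal of all genes and the 1000 brightest 53.4%. A signal over 10000 was reached by 239 genes (1.27%) and one over 1000 by 3394 (18.1%).

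Probes of the same gene often differed. Of 2412 genes above the limit with more than 1 probe, 1539 (63.8%) had a second probe at or below it, and the median ratio of the brightest to the dimmest probe was 3.79. RPS3 had 71.8 at its second probe and RPL10 52.1, against 30008 at its first. Unless another probe is mentioned, the values of the families and marker lists are those of the brightest probe. A single value does not mean that other probes of the gene read alike. Probes at or below the limit were also found for FGFR3 (84.5), DNMT3B (87.6 and 56.7), PAX6 (56.2), ZEB2 (63.7) and EYA1 (69.8), among others.

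Across 37 gene families, the median percentile was above 90 in 14 and below 40 in 13, while the median of all genes is 50 by definition. The cytosolic ribosome held the largest share of the summed signal among the 37 families. The 69 cytosolic ribosomal protein genes had a median percentile of 99.5 and a median signal of 19165, and that share was 6.77%. Above the limit were 66 of the 69, beside 59.5% of all genes. The exceptions were RPL22L1 with 82.5, RPL3L with 73.3 and RPL10L with 62.9. RPL3L is known from striated muscle and RPL10L from testis. All 77 mitochondrial ribosomal proteins lay above the limit, with a median percentile of 93.8, and were led by MRPL23 (13220.3) and MRPL37 (12899.8).

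Translation factors followed the ribosome. EEF1A1 was followed by EEF2, the translocation factor, with 24966, and the 5 elongation factor genes had a median percentile of 99.5. EEF1A2, the isoform known from muscle and neurons, had 3493, at percentile 94.2. Among 44 initiation factors the median percentile was 94.8, with EIF4A1, the RNA helicase of the cap-binding complex, at 26866 and EIF3E at 18481. EIF4E, which binds the cap itself and is needed by dividing cells, had 63.99 and 56.5 at its 2 probes, both at background.

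Energy metabolism was as bright. The 18 ATP synthase genes had a median percentile of 98.96, with ATP5F1E at 26581 and ATP5MC2 at 25706. All 18 lay above the limit, beside 59.5% of all genes. The 35 complex I genes had a median percentile of 97.1, with NDUFS6 at 22303 and NDUFA1 at 18538. NDUFA5, with 68.1, was the member at background. In the cytochrome bc1 and cytochrome oxidase group, COX7C had 27675 and COX8A 24876, and the median percentile was 96.7. The 6 of its 26 members at background were COX4I2, COX6A2, COX6B2, COX7A1, COX7B2 and COX8C, with signals from 55.95 to 64.8. Of these, COX6A2 and COX7A1 are known as heart and skeletal muscle isoforms. Of the 18 glycolytic genes, with a median percentile of 92.9, 17 lay above the limit, led by GAPDH and ENO1, and HK3, a hexokinase of blood cells, had 50.9.

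Among protein turnover and folding genes, those of the proteasome had a median percentile of 94.1, with PSMB1 at 20288 and PSMB3 at 14039.5. PSMB8, an immunoproteasome subunit, had 68.1, PSMB11, known from thymus, 54.9 and PSMA8, known from testis, 56.6. PSMD12 (55.8) and PSMD5 (72.9) were also at background. Chaperonin genes had a median percentile of 86.2 with CCT2 at 17979 and CCT7 at 8099, and the HSP90 and HSP70 group one of 81.2 with HSPA1B at 17025 and HSPA8 at 12721. HSPA1A had 50.4, although its sequence is nearly the same as that of HSPA1B, so the signal of the pair cannot be assigned to one of them from these probes.

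RNA processing genes were high. SR splicing factors had a median percentile of 93.6, with SRSF9 at 14398 and SRSF6 at 5704, Sm and LSm proteins one of 90.96 with SNRPB at 21086 and SNRPG at 20728, and hnRNP proteins one of 84.3 with HNRNPAB at 15537 and HNRNPC at 12779. The 3 peroxiredoxins measured were PRDX1, PRDX4 (26407) and PRDX6 (7671). The 6 genes of the YWHA adaptor proteins had a median percentile of 98.1, led by YWHAZ (17687) and YWHAQ (13523). The 17 tubulin genes counted, which leave out TUBB (20364), had one of 82.6. Among them were TUBA1B at 27579, TUBB4B at 20444, and TUBB1, known from platelets, at 68.6. Annexins (median percentile 53.7) ranged from ANXA1 with 12431 and ANXA5 with 9978 to ANXA10 with 53.2.

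Large mixed families sat in the middle of the scale. RAB GTPases had a median percentile of 66.3, led by RAB7A (5660) and RAB11A (4715), and numbered ZNF genes one of 54.1, led by ZNF207 (5154) and ZNF593 (4136), with 309 of 446 above the limit (69.3%). Solute carriers had a median percentile of 47.8 with 191 of 321 above the limit (59.5%), the same share as all genes. The brightest were the mitochondrial ADP/ATP and phosphate carriers SLC25A5 (25417) and SLC25A3 (13521). HOX genes, which set position along the body axis, were led by HOXB7 (1618) and HOXC6 (1388). Of 29 members, 23 lay above the limit (79.3%, beside 59.5% of all genes) and 17 above the stricter one (47.3% of all genes). HLA genes had a median percentile of 59.9, led by HLA-E (2518) and HLA-DPA1 (1037).

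The families with a median percentile below 40 include receptors, channels and secreted proteins of specialised cells, and also histones and integrins. GABA-A receptor subunits had a median percentile of 17.6, and 1 of 15 (6.67%) lay above the limit, beside 59.5% of all genes. This was GABRR2 with 123.4, just above background, ahead of GABRA3 with 75.8. Keratins had 23.5, with 11 of 48 members above the limit (22.9%, beside 59.5% of all genes), led by KRT18, KRT8 and KRT10 (6727). Metallothioneins had 21.2, although MT2A (3873) and MT1X (3520) were bright. Interleukins had 26.2, led by IL18 (1745) and IL32 (264), voltage-gated potassium channels 26.9, led by KCNG1 (518) and KCNS3 (323), and cytochrome P450 genes 28.1, led by CYP2R1, a vitamin D hydroxylase (1184), and CYP2J2 (436). Chemokines had 29.2, led by CXCL16 (1243) and CCL7 (303), and claudins 32.9, led by CLDN12 (904) and CLDN1 (552). Cadherin genes with CDH symbols, which the figure labels classical cadherins, had 33.6, led by CDH2 (907) and CDH3 (594). S100 proteins had 36.01, led by S100A10 (12967.5) and S100A13 (4967), and integrins 36.9, led by ITGB1 (8898) and ITGB5 (2384). Histones had 37.6, led by H4C3 and the variant gene H2AZ1 (27500), and collagens 39.96, led by COL5A1 (4405) and COL4A1 (3540).

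**Figure D3:**
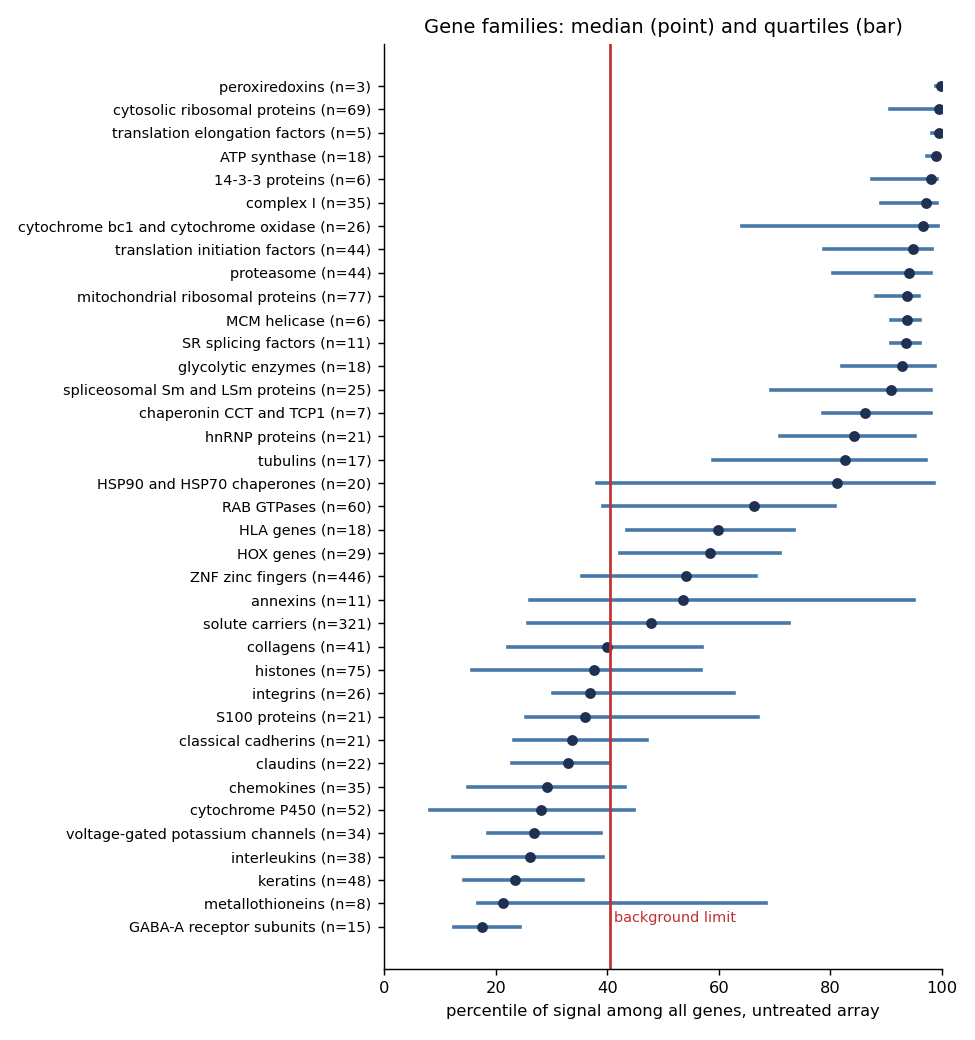
Percentile of signal among all 18774 genes on the untreated array for 37 gene families, protein-coding members, with the number of genes in brackets. Points are family medians, bars join the quartiles, and the red line marks the background limit, which 40.5% of genes do not exceed. Ribosomal, elongation factor and ATP synthase genes sit at the right edge, and GABA-A receptor subunits and metallothioneins at the left.

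Lineage was read from 14 marker lists with 257 measured genes in all. Of these, 109 (42.4%) lay above the limit, beside 59.5% of all genes. Above the stricter limit lay 77 of the 257, beside 47.3% of all genes. A signal over 1000 was reached by 22. The lists were chosen with earlier results of these data known, and no test was made on them with 1 array.

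**Figure D4:**
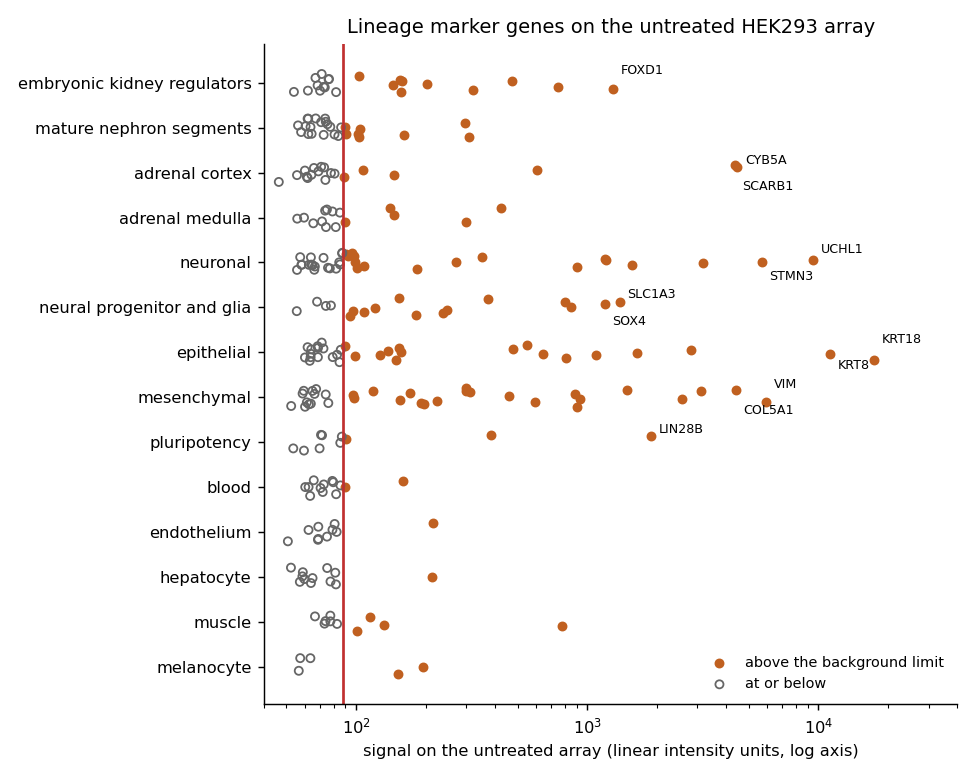
Signal of each measured marker gene on the untreated array (horizontal, linear intensity units, log axis) for 14 lineage lists. Filled points lie above the background limit of 88.1 (red line) and open points at or below it, and up to 2 of the brightest genes of a list are labelled where they exceed 1000. KRT18, KRT8 and UCHL1 lie furthest to the right, and the blood, endothelium, hepatocyte and melanocyte lists reach no further than VWF at 216.

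Epithelial genes ranged from some of the brightest markers of all lists to background, among keratins and among junction and adhesion genes alike. KRT18, a keratin of simple epithelia, had 17457 on the untreated array, against 18183 in control RNA, 11793 in 1# and 17497 in 2#, at percentile 99.5. Its other 2 probes had 1081 and 693. KRT8, its partner in the filament, had 11202, against 11582, 8628 and 12130.2 in the same order of arrays, and KRT19 had 2816. JUP, the junction protein plakoglobin, had 1650, MAL2 1092, the tight junction scaffold gene TJP1 813, the desmosome genes DSP 644 and DSG2 476, and CLDN1 552. At background were CDH1, the gene of E-cadherin, with 84.8 and EPCAM, an epithelial adhesion molecule, with 79.3. ESRP1 (71.1), a splicing factor of epithelia, and GRHL2 (63.6), a transcription factor that maintains them, were there too, as were KRT7 (82.8), another keratin of simple epithelia, and the basal keratins KRT5 (68.5) and KRT14 (64.03). In all, 16 of 31 measured members lay above the limit (51.6%, beside 59.5% of all genes), 4 of them just above background. For CDH1 the arrays fell on both sides of their limits, with 84.8 in untreated cells (limit 88.1), against 100.1 in control RNA (limit 92.4), 90.7 in 1# (95.3) and 104.6 in 2# (94.8).

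Mesenchymal genes had 21 of 33 members above the limit (63.6%), close to the share of all genes. VIM, the intermediate filament vimentin, had 5959 on the untreated array, against 6236 in control RNA, 8490 in 1# and 7392 in 2#. COL5A1, a fibrillar collagen, had 4405, ACTA2, smooth muscle actin, 3104, and CD44, the hyaluronan receptor, 2580 at one probe and 60.3 at the other. CDH2, the gene of N-cadherin, had 907 in untreated cells, against 870, 911 and 859 in control RNA, 1# and 2#, so the 4 arrays lay close together. TWIST1, a transcription factor of mesenchyme, had 596, ZEB2 299.6 and SNAI1 171, and the matrix genes SPARC 460.1, LUM 309.99 and COL1A1 299.1, whereas THY1 (60.2), PDGFRA (66.1) and COL1A2 (62.5), also known from fibroblasts, were at background. FN1, fibronectin, had 73.96 and 54.2 at its 2 probes.

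Neuronal genes had 17 of 35 members above the limit (48.6%), beside 59.5% of all genes. Above the stricter limit were 10 of them, beside 47.3% of all genes. UCHL1, an abundant neuronal deubiquitinase, had 9469 on the untreated array, against 11582 in control RNA, 9990 in 1# and 9921 in 2#, at percentile 98.5. STMN3, a microtubule-destabilising stathmin of neurons, had 5696, and NEFL, the light neurofilament, 3168, against 3149, 2624 and 3817 in control RNA, 1# and 2#. DPYSL3, known from growth cones, had 1558, GAD1, the GABA-synthesising enzyme, 1207, ENO2 1194 and TUBB3 908. The other neurofilament genes were low, with 100.5 for NEFM, just above background, and 66.0 for NEFH. PRPH, the peripheral neuron filament peripherin, had 350. STMN2 (57.3), the RNA-binding protein gene ELAVL4 (55.6) and the synaptic vesicle genes SYN1 (64.09), SYP (75.7) and SNAP25 (82.02) were at background. Neural progenitor and glial genes had 13 of 17 members above the limit (76.5%, beside 59.5% of all genes), 4 of them just above background. Above the stricter limit were 9 of the 17, beside 47.3% of all genes. Among them were SLC1A3, a glutamate transporter, with 1381, SOX4 with 1190, NOTCH1 with 853 and MBP with 799. Lower were NES (248), PAX6 (182) and, just above background, SOX2 (121). SOX10 (77.9) and S100B (55.4), both of glia and neural crest, were at background.

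Kidney genes were few among the bright ones. Of 21 measured regulators of the embryonic kidney, 10 lay above the limit (47.6%), beside 59.5% of all genes. FOXD1, a factor of the renal stroma, had 1289 on the untreated array, against 1494 in control RNA, 2942 in 1# and 2284 in 2#. HOXD11, needed for metanephric kidney growth, had 751, against 918, 969 and 908, BMP7 473, against 647, 499.9 and 623, and WT1, a regulator of nephron progenitors, 321, against 343, 385 and 366. Progenitor genes of the cap mesenchyme differed, with CITED1 at 202 above both limits, EYA1 at 103 just above background and SIX2 at 76.1 at background. SIX2 exceeded the limit on the MIF siRNA arrays, with 122.7 in 1# and 106.9 in 2#, whereas it was 74.3 in control RNA. PAX2 had 71.04, PAX8 81.99, SALL1 68.2 and RET 72.5. Of 26 measured genes of mature nephron segments, 8 lay above the limit (30.8%) and 3 above the stricter one, beside 59.5% and 47.3% of all genes. Those 3 were ATP6V1B1, a proton pump subunit of intercalated cells (307), SCNN1A, a subunit of the epithelial sodium channel (298), and AVPR2, the vasopressin receptor of the collecting duct (162). PODXL, a podocyte sialomucin, had 104, just above background. The endocytic receptors LRP2 and CUBN of the proximal tubule had 83.8 and 66.9, and the phosphate transporter SLC34A1 77.4.

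Adrenal genes were mostly at background. Of 19 measured genes of the cortex, 6 lay above the limit (31.6%), beside 59.5% of all genes. The brightest, CYB5A (4455), SCARB1 (4355) and POR (606), also serve other tissues. CYP11A1, which cleaves the cholesterol side chain in the first step of steroid synthesis, had 146, against 138, 159 and 157 in control RNA, 1# and 2#. NR5A1, the transcription factor that sets the steroidogenic programme, had 107, just above background. CYP17A1 (46.3), CYP11B1 (55.6), CYP21A2 (80.8) and STAR (72.8) did not exceed the limit. Of 15 genes of the adrenal medulla, 5 did (33.3%), namely GATA2 (424), ISL1 (299.6), INSM1 (146), PNMT (140) and, just above background, DDC (89.3). TH and DBH, enzymes of noradrenaline synthesis, had 74.1 and 59.6, and the secretory granule gene CHGA 65.3.

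In the other lineages the share above the limit ran from 8.33% for hepatocytes to 40% for muscle and melanocytes, beside 59.5% of all genes. Blood had 2 of 13, HBA1 (160) and PTPRC (89.4, just above background), with LYZ at 85.6, ITGB2 at 82.03 and CD3E at 70.3. The other probes of PTPRC had 56.0 and 54.2. Endothelium had 1 of 10, VWF (216), with PECAM1 at 74.9 and CDH5 at 68.7. Hepatocytes had 1 of 12, SERPINA1 (214, with 74.8 and 57.7 at its other probes), with ALB at 64.9 and APOA1 at 81.9. Muscle had 4 of 10, of which NKX2-5, a heart transcription factor, was bright with 782. The others, ACTC1, MYH3 and CKM, lay between 101 and 132, just above background. MYOD1 and MYOG, the myogenic factors, had 73.1 and 77.4. Melanocytes had 2 of 5, MITF (195) and PMEL (151), with TYR at 57.4 and MLANA at 63.5. The other probes of MITF had 92.8 and 56.1, and that of PMEL 56.7. The pluripotency list had 3 of 10. LIN28B, which blocks let-7 maturation, had 1898, against 2171, 2008 and 2044 in control RNA, 1# and 2#, and DNMT3B, a de novo DNA methyltransferase, 383. POU5F1 had 90.1, just above background, with 68.5 and 60.7 at its other probes, and NANOG (86.8) and LIN28A (53.5) did not exceed the limit.

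Proliferation genes, most of them E2F targets, were all above both limits (24 of 24). Of all genes, 59.5% lay above the background limit and 47.3% above the stricter one. The proliferation genes had a median percentile of 92.5 and signals from 302 to 14206. MCM7, a subunit of the replicative helicase, had 14206, RRM1, the large ribonucleotide reductase subunit, 13584, TOP2A, topoisomerase II, 9971 and TYMS, thymidylate synthase, 9546. MCM2 had 3552, MCM3 2107 and MCM4 5598. CDKN2A, which is held down by retinoblastoma proteins and is released when they are lost, had 2847. CCNB1, cyclin B, was the dimmest member with 302.

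All 14 measured housekeeping genes lay above both limits, beside 59.5% and 47.3% of all genes, and had a median percentile of 97.3. EEF1A1, GAPDH and ACTB (25597) were followed by LDHA (24860) and YWHAZ. TBP, a general transcription factor, had 1065, and PPIA, another common standard, 275, the lowest of the list.

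Receptors and sensors bear on the wide use of these cells as hosts for transfected receptors. Among the Toll-like receptor genes of the list, TLR9 (100.8) and TLR3 (97.5) lay just above background, and TLR1 (72.8), TLR2 (57.4), TLR4 (64.04), TLR5 (83.4), TLR6 (79.5), TLR7 (57.6) and TLR8 (65.4) at background. The DNA sensor gene CGAS had 61.7. The adaptor TICAM1 (1171), the transcription factors IRF3 (943) and IRF7 (692) and the DNA-pathway adaptor STING1 (335) lay above both limits. Of 22 innate sensing genes, 12 lay above the background limit (54.5%), beside 59.5% of all genes. Among receptor tyrosine kinases, 18 of 22 lay above this limit (81.8%), 7 of them just above background. FGFR3 had 2120, EPHA2 1737, IGF1R 1451 and the collagen receptor DDR1 733, ahead of EGFR with 273, while ERBB2 (107) and ERBB3 (104) were just above background. Of 37 G protein-coupled receptors, 17 lay above the limit (45.9%) and 8 above the stricter one, beside 59.5% and 47.3% of all genes. The brightest were the lysophosphatidic acid receptor LPAR1 (1196), the adenosine receptor ADORA2B (1039), the thrombin receptor F2R (475) and the muscarinic receptor CHRM3 (391). ADRB1 (73.9), CHRM1 (63.2) and CHRM2 (81.6) were at background.

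Whether the untreated array differed from the transfected ones was asked at the level of calls and of signal. With each array held to its own background limit, 18290 of 18774 genes (97.4%) fell on the same side in control RNA as in untreated cells, 17968 (95.7%) in 1# and 18115 (96.5%) in 2#. Above the limit on all 4 arrays were 10742 genes, which is 96.2% of those above it on the untreated array. In 77 genes the untreated array alone was above its limit, and none of these 77 (0) exceeded the stricter limit. In 76 genes the reverse held, with the untreated array alone at or below its limit. Across the 18774 genes Spearman's rho with the untreated array was 0.992 for control RNA, 0.984 for 1# and 0.990 for 2#, a description of arrays that share a platform and a cell line. Of the 257 lineage markers, 104 were above the limit on all 4 arrays, 127 on none (0 arrays) and 26 on 1 to 3.

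**Figure D5:**
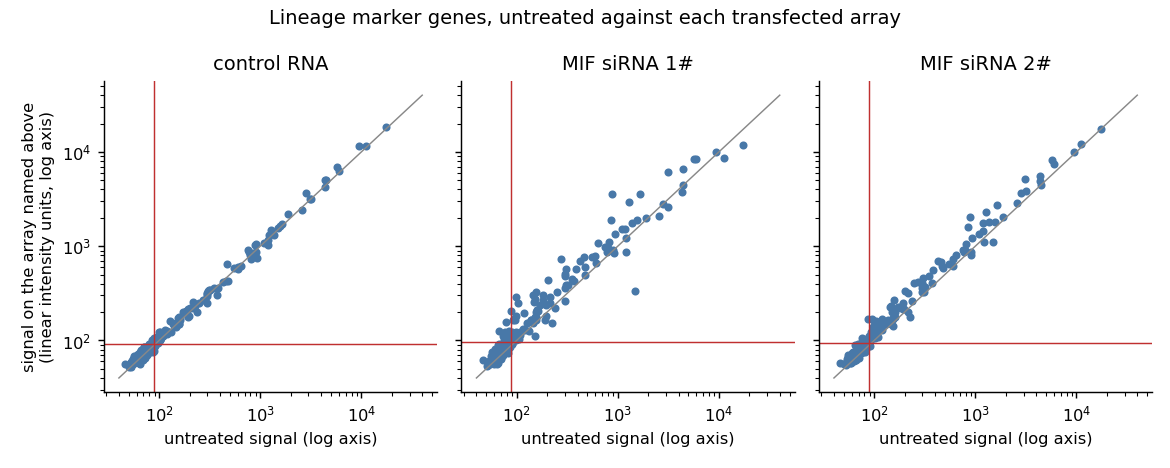
Deposited signal of the 257 lineage marker genes on the untreated array (horizontal) against control RNA, MIF siRNA 1# and MIF siRNA 2# (vertical), linear intensity units on log axes. Grey lines mark equal signal and red lines the background limit of each array (88.1 in untreated cells, against 92.4, 95.3 and 94.8). Points lie closest to the diagonal for control RNA and scatter most for 1#. In 1#, TAGLN (1490 in untreated cells and 335 in 1#) lies far below the diagonal. S100A4 (885 and 3546) lies far above the diagonal.

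For signals, arrays were quantile-normalized and 13755 genes with a mean above the median of all probes were fitted with limma, untreated against the 3 transfected arrays. The spread was estimated from those 3 arrays, which differ in treatment, and the single untreated array was assumed to vary like them. By limma 0 genes passed an adjusted p of 0.05, higher or lower in untreated cells (0% each way). The lowest adjusted p of limma over the 13755 genes came to 0.99, while 59 passed 0.05 unadjusted. Nor did any gene (0, or 0% each way) lie at least 1.5-fold from all 3 transfected arrays in 1 direction. Without control RNA, 217 genes passed this fold rule, 86 higher and 131 lower in untreated cells, so the control RNA array decides that count of 0. Set against control RNA alone, 4 genes were at least 1.5-fold higher and 9 lower in untreated cells. Against 1# these counts were 633 higher and 815 lower, and against 2# they were 94 higher and 154 lower.

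Genes near the fold rule are given with their normalized signals. THBS1, a matrix protein that activates TGF-beta, had 524 in untreated cells, against 364 in control RNA, 185 in 1# and 299.7 in 2#, a log2 difference of 0.94 ± 0.40 (SE, limma adjusted p = 0.99). DDX21, a nucleolar RNA helicase, had 5314, against 4157, 2829 and 3379, and SLC7A11, the cystine transporter, 165, against 131, 79.5 and 92.9. TAF11, HYOU1, SLC4A7, USP37 and TSPEAR-AS1 were at least 1.33-fold, 1.28-fold, 1.28-fold, 1.27-fold and 1.26-fold above every transfected array. On the lower side, LTBR, the lymphotoxin beta receptor, had 717 in untreated cells, against 992, 1019 and 1015 in control RNA, 1# and 2#, a log2 difference of -0.49 ± 0.11 (SE, limma adjusted p = 0.99), and the interferon-induced gene BST2 247, against 363, 331 and 362. TMEM44, ZNF689, ABI1, CARHSP1 and STK38 were at least 1.40-fold, 1.34-fold, 1.33-fold, 1.31-fold and 1.31-fold below every transfected array. In these genes the untreated array did not overlap the other 3, but 21.3% of all genes were higher and 21.5% lower in untreated cells than on every transfected array.

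Among the marker lists none had a member past the fold rule (0 genes). The median log2 difference of a list, untreated minus transfected, lay between -0.12 for embryonic kidney regulators, 16 of which passed the filter on dim probes, and 0.06 for blood, with 7, against -0.01 over all genes. Of those 16 kidney regulators, 7 were lower in untreated cells than on every transfected array (43.8%, against 21.5% of all genes) and 0 higher (21.3% of all genes). Of 6 endothelial genes 4 were lower (66.7%), and of 9 muscle genes 5 were higher (55.6%). Limma called none of these genes (0). These counts take any margin, and several members lay at background and close to another array. TIE1 had normalized signals of 83.56 in untreated cells and 83.62 in control RNA, and MYOD1 76.82 and 76.76. A dim gene could also pass the filter, a mean over the 4 arrays, through its values on transfected arrays. Members of a list are not replicates, so these counts show no shift of a list.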

How the data were processed

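Per the labels' protocols, total RNA was amplified to biotin-labelled cRNA and hybridised to Illumina Human-6 bead arrays, and BeadStudio is named in the submitters' processing notes, its version being not given in the sources used here. The authors deposited 1 linear intensity per probe with no detection p-value in the tables used. The smallest value on the untreated array was 39.8 and medians differed between arrays, and no sign of subtracted background or of scaling between arrays was seen, so background left in the signal compresses dim genes. A value table of the whole series, which the authors also deposited, holds the same intensities normalized between arrays (median 73.8). From row 19832 its probe names stand 1 row off the sample tables, so it was matched by position and used only as an alternative, and it held 0 columns of other samples.

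Of 48701 probes, 23687 had 1 gene in the platform annotation, 35 several and 24979 none listed. Symbols were updated by Entrez identifier to RefSeq GRCh38.p14, and 15355 genes had 1 probe. The brightest probe on the untreated array stood for a gene, except in the comparison with transfected arrays, which took the probe with the highest mean over the 4 normalized arrays. Families were taken by symbol pattern among protein-coding genes, and patterns were tightened after the files were seen to leave out binding partners, pseudogenes and assembly factors. The members, lists and motifs were chosen with earlier results of these data known.

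The comparison used quantile normalization, log2, a filter at the median of all probes and limma 3.58.1 in R 4.3.3 (lmFit, eBayes, two-sided, Benjamini-Hochberg, threshold 0.05). Nothing in the labels says that arrays came from separate cultures, so its p-values measure only the spread between these arrays, whose number limits the precision. Steps were tested on simulated data. Named genes were the 25 brightest, the first 3 and the 4 brightest of each list, the 2 brightest of each family, and the 8 highest and 8 lowest by smallest pair difference, passing over placeholder names, and 1 of the 8 lowest is not reported here. Other genes were named after their values were seen. Python 3.11.15 and pandas 2.3.3 were used. Alternatives changed the limit, the probe rule, the source, the array, the normalization, the filter and the fold.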

Additional observations from a re-analysis of the deposited data

Results flagged for a closer look

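Probes that the platform annotation does not list with a gene were used in no comparison, yet 3754 of 24979 (15.03%) lay above the background limit on the untreated array, against 53.6% of the 23687 probes with 1 gene. Of these unlisted probes, 93 exceeded a signal of 10000, and the brightest, ILMN_1652748, had 33838 on the untreated array, against 32824 in control RNA, 33855 in 1# and 37071 in 2#. What these probes measure was not tested.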

How the results depend on the processing

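The count of genes above the background limit was 11169 and stayed within 1.5 times of it under all 8 alternatives, from 8872 with the 99th percentile of the background families to 13655 with the median of all probes as the limit. The count of lineage markers, 109, became 169 with the median of all probes as the limit and lay between 77 and 122 under the other 7 alternatives. With the stricter limit 10 neuronal and 3 mature nephron genes were left, against 17 and 8 with the main one. Among receptor tyrosine kinases 11 were left, and among G protein-coupled receptors 8. With the dimmest probe of each gene the lineage count was 85. The count of families with a median percentile above 90 was 14 and ran from 12 to 14 over its 6 alternatives. For untreated against transfected arrays, limma called 0 genes under each of its 10 alternatives, with 1 to 1764 genes at an unadjusted p under 0.05. The 1.5-fold rule gave 1 gene, lower in untreated cells, when arrays were brought to a common median, which moved the median of all genes to -0.08. Leaving out 1 array gave 0 to 217 genes, with 217 without control RNA, 1 (SNORA25) without MIF siRNA 1# and 0 without MIF siRNA 2#. With a lone untreated array, and 2 arrays left on the other side, this rule has fewer pairs to meet. No paired analysis was possible because the untreated condition had 1 array and the groups share fewer than 2 replicate numbers. Dim genes are limited by signal over background, since 2297 genes lay between the 95th and 99th percentiles of the background families.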
